A study of Mus musculus with 25 samples.

Results

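H3K27ac, acetylation of lysine 27 on histone H3, was compared gene by gene between mouse cells after 4 days (D4) and 8 days (D8) in a chemical medium called M9. The comparison covers every autosomal gene of the deposited gene table, 23190 of the 24426 gene symbols kept from 24453 rows, with 1 H3K27ac library a side. The 27 rows left out carry names that a spreadsheet had turned into dates. According to the series title the medium serves to turn fibroblasts into neural stem-like cells, and the comparison asks which genes gained or lost acetylation between those days.

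Both groups are cells named tdMEFs in the labels, with no further word on their origin or genotype. They had been grown in serum at 20% oxygen and were then held at 5% oxygen in serum-free M9 on N2 and B27 supplements. M9 holds CHIR99021, an inhibitor of GSK3 that activates Wnt signalling, the BMP receptor inhibitor LDN193189 and the TGF-beta receptor inhibitor A83-01. Further components are retinoic acid, bFGF, SMER28 and Hh-Ag1.5, which activates Smoothened. RG108, an inhibitor of DNA methyltransferases, and Parnate, an inhibitor of the demethylase LSD1, complete it. All of these agents were present at D4 and at D8, so the comparison isolates no agent, and with 1 library a stage, time in M9 cannot be told apart from culture or library. The H3K27ac library of the same cells before M9 (D0) is given beside single genes for orientation. The labels do not say how many cultures or animals each library came from, nor what share of the cells responded.

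H3K27ac is written by the acetyltransferases p300 and CBP and marks active promoters and active enhancers. Its removal by histone deacetylases, or its replacement by Polycomb methylation of the same residue, goes with silencing. In fibroblasts on a neural path the mark is used to follow the loss of mesenchymal gene activity and the gain of neural gene activity. H3K4me3 marks active and poised promoters, H3K4me1 marks enhancers, and H3K27me3 is the Polycomb mark.

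The D4 library held 16.9 M reads and the D8 library 7.86 M reads, as inferred from the size of 1 read in the table. Values are read counts scaled to a common library size (RPM), in which 1 read is worth 0.0590 RPM at D4 and 0.127 RPM at D8. The D0 library held 1.58 M reads, with 1 read worth 0.632 RPM, so low D0 values rest on few reads. D0 values are given as deposited and were not scaled to the other stages. The length of the region counted per gene is not given, so values are not per length. Summed over genes, the values came to 5.97% of the library at D4 and 8.86% at D8. The lower quartile of autosomal genes was 1.48 RPM at D4 and 1.65 RPM at D8, while the 99th percentile was 8.82 and 18.4 RPM. The D8 library thus held more of its reads at the highest genes, and equal RPM is not equal standing in both libraries. The 2 columns were therefore brought to 1 common distribution over autosomal genes (quantile normalization), and every change below is on that scaled basis unless it is called deposited. The order of genes by level had a Spearman's rho of 0.788 over the 23190 genes, which are not independent replicates.

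Change is given as log2 of (D8 + c)/(D4 + c) with c = 1.59 RPM, so the change of genes at low levels is understated. Comparison required 2.29 RPM as deposited in at least 1 of the libraries, which left 14536 genes. Fold values of single genes are the plain ratio of the scaled values, with a 95% exact (Clopper-Pearson) interval of the read ratio. These intervals cover counting error only, since reads amplified without molecular identifiers are not independent molecules. With 1 library a side there is no p-value, and each difference is one between these libraries.

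The labelled cell type was checked against the acetylation of marker genes at both stages. All 8 fibroblast markers lay above the upper quartile of autosomal genes at D4 and at D8, with summed levels of 83.8 and 138 RPM as deposited. Of 8 neural stem and progenitor markers, 0 lay above the upper quartile at D4 and 1, the intermediate filament gene Nes, at D8, and their summed level was 11.7 and 24.5 RPM. Summed levels of 4 neuronal markers were 5.74 and 7.31 RPM, of 5 blood markers 10.4 and 12.9 RPM, of 4 endothelial markers 8.38 and 8.39 RPM, of 4 epithelial markers 4.96 and 8.52 RPM and of 4 skeletal muscle markers 4.07 and 5.34 RPM. Of the blood markers 1 lay above the upper quartile at D4 and 1 at D8, and of the endothelial markers 1 at D4 and 0 at D8. For neuronal, epithelial and skeletal muscle markers it was 0 at both stages. No marker was at 0 at D8, and the lowest value of any was that of Myod1, 0.763 RPM. In a bulk library, more cells with a mark and more of the mark per cell cannot be told apart.

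The promoters of 5 genes described below are printed as examples of CpG-rich and CpG-poor starts, chosen after their values were seen. They are taken from RefSeq (GRCm38.p6, the assembly behind mm10), 250 bases before to 50 after the start, 5′ to 3′ on the gene's strand, with CpG dinucleotides in capitals. The first 3 belong to genes that were higher at D8 and hold 41, 23 and 29 CpGs. The last 2, of genes that were lower after scaling, hold 4 and 2 CpGs. Other genes go the other way: Hoxa13 (log2 change -0.28) has 45 CpGs and Hoxd13 (-0.57) 37, while Neurl2 (1.20), 4930452A19Rik (1.26) and Hoxa2 (0.24) have 9, 7 and 9. Over all 32851 RefSeq mouse promoters of this length the median is 7 CpGs, the lower quartile 3 and the upper quartile 20.
Irs2, chr8:11008880-11009179, minus strand: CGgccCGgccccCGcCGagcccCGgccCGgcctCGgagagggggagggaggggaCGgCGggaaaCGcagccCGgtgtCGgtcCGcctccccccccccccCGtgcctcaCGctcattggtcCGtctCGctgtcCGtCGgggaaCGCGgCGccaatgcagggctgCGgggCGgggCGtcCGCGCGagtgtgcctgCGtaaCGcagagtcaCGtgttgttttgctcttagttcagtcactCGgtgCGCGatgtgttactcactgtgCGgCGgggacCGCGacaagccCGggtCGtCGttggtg
Notch1, chr2:26503773-26504072, minus strand: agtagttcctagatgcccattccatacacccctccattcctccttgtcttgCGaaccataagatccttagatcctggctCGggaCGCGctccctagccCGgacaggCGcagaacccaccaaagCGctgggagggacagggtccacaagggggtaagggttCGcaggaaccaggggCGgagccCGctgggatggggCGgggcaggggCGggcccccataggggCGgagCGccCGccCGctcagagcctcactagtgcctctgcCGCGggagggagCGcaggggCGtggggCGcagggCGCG
Hoxa5, chr6:52204538-52204837, minus strand: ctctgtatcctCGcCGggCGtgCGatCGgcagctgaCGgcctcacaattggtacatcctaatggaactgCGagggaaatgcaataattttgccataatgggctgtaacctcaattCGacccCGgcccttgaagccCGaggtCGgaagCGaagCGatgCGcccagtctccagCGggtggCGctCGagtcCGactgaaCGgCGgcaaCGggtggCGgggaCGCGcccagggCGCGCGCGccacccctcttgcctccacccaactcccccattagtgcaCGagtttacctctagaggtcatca
Hoxa9, chr6:52227321-52227620, minus strand: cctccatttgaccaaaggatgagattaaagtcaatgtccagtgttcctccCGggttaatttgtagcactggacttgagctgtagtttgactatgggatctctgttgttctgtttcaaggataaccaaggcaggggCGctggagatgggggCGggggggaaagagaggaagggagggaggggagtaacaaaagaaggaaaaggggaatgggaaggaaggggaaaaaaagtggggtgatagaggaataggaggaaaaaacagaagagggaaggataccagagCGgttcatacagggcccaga
S100a4, chr3:90603520-90603819, plus strand: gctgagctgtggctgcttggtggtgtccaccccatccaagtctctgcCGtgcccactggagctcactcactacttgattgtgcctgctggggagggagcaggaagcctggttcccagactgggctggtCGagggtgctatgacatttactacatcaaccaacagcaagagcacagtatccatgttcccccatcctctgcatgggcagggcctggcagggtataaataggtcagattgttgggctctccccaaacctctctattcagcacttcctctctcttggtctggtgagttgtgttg

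At D8, 48 of the 14536 compared genes were at least 2-fold higher on the log2 scale (0.33%) and 49 at least 2-fold lower (0.337%). At 1.5-fold the counts were 840 (5.78%) and 806 (5.54%). The counting interval of the ratio lay above 1 for 1780 genes (12.2%) and below 1 for 1428 (9.82%). Over all 23190 autosomal genes, without the level filter, 893 were at least 1.5-fold higher (3.85%) and 940 lower (4.05%). The 1.5-fold counts of gene lists below cover all autosomal members and are to be read beside these 2 shares. Similar counts in both directions follow from the scaling, and the deposited values alone gave 1022 genes higher and 5 lower, on a median log2 change of 0.40 for all compared genes. All 48 genes called higher were also higher as deposited and 0 of the 49 called lower were. A gene could pass the level filter through 1 stage only. The 48 had median deposited values of 1.77 RPM at D4 and 7.44 at D8, and the 49 had 3.42 and 1.4. At the edge of the call, Rassf2 was just inside with a log2 change of 1.00 and Hs3st3b1 just outside with 0.998, while on the lower side Aadacl2 (-1.001) was inside and AF357426 (-0.99) outside.

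**Figure D1:**
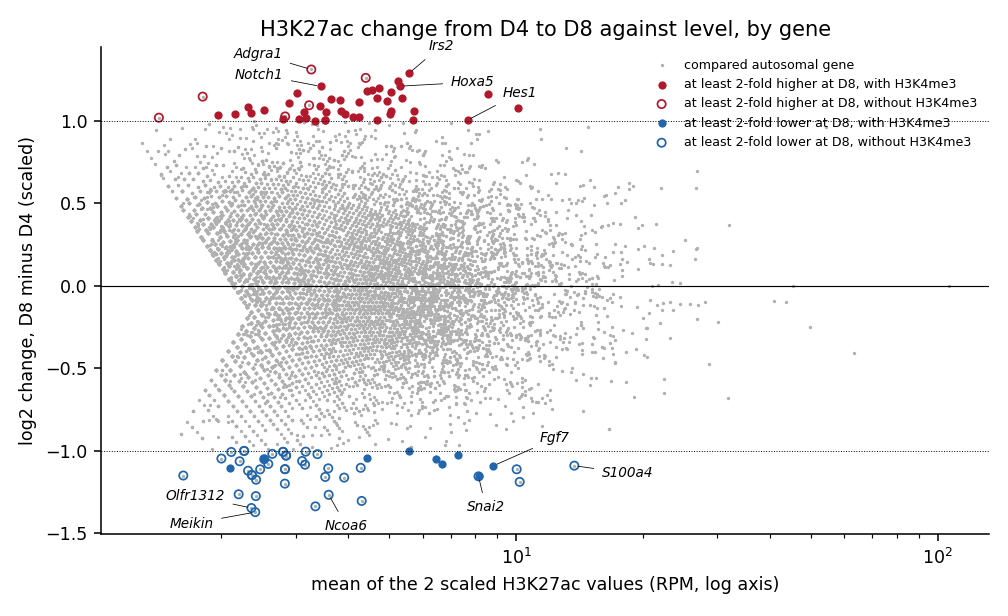
Each point is 1 of the 14536 compared autosomal genes, with the mean of its scaled H3K27ac values on a log axis in RPM and the log2 change from D4 to D8 on the other axis. The 48 genes at least 2-fold higher (red) hold 42 filled points, that is with H3K4me3, and the 49 lower (blue) hold 9. Of all compared genes 73.4% have it.

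Among the 12 gains named by rule was Irs2, the adaptor that couples insulin and IGF1 receptors to PI3-kinase (chromosome 8, 10984681 to 11008929). It had 2.3 RPM at D4 and 11.3 at D8, against 2.53 at D0. The scaled ratio was 3.34 (2.27 to 5.0). Akt1, a kinase of the same pathway, had 2.42 and 10.4 RPM (ratio 2.9, 1.97 to 4.33). Foxo3, the forkhead factor that AKT kinases hold out of the nucleus, had 4.25 and 19.3 RPM (2.41, 1.81 to 3.24). Akt1 and Foxo3 were picked out after their values were seen, and no list of this pathway was counted. In all 3 the D8 value was more than 4 times the D4 value as deposited, and none of the intervals reached 1. The latter follows from their choice, since the interval left out 1 for all 48 genes called higher. The non-coding gene 9530052E02Rik starts beside Irs2 and had nearly the same values, 2.24 and 10.6 RPM, and the same reads may be counted for both.

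The other gains named by rule have varied roles. Adgra1, an adhesion G-protein-coupled receptor (chromosome 7, 139834097 to 139878088), was first in the ranking with 1.12 RPM at D4 and 6.74 at D8 (log2 change 1.31, ratio 4.46, 2.6 to 7.98). It carried little H3K4me3, 3.97 and 7.43 RPM. Gadd45b, a stress-induced gene linked to DNA demethylation, had 2.24 and 9.92 RPM (3.07, 2.06 to 4.65). Baiap2, which links membranes to actin, went from 2.01 to 9.03 RPM and Map1s, a microtubule-binding protein, from 1.95 to 8.77. Efs, an adaptor of SRC-family kinases, had the highest D8 level of the 12 genes named by rule, 16.8 RPM from 3.54 at D4. Neurl2, a neuralized family gene, lies beside Ctsa, a lysosomal carboxypeptidase, and both had about the same values (2.07 and 9.41 RPM, 2.24 and 9.6 RPM). The last of the 12 are the non-coding genes 4930452A19Rik (1.83 and 8.9 RPM) and 2610035F20Rik (1.18 and 5.98 RPM). The latter lies within 5 kb of the neural zinc finger genes Zic2 and Zic5.

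Genes of the Notch pathway, in which a ligand on one cell triggers cleavage of a receptor on its neighbour and activation of Hes and Hey repressors through Rbpj, included 6 of 23 members past 1.5-fold. Notch1, a receptor (chromosome 2, 26457902 to 26503822), stood at 2.53 RPM before M9, 1.36 at D4 and 6.87 at D8, with a scaled ratio of 3.77 (2.27 to 6.43). Hes1, a direct target, had 6.95, 3.48 and 14.4 RPM (ratio 2.36, 1.71 to 3.29). Both were lowest at D4. The ligand Jag1 had 4.43 and 15.6 RPM (1.88, 1.4 to 2.54) and the ligand Dll4 0.649 and 2.54 RPM (3.65, 1.67 to 8.43). Lfng, a glycosyltransferase that tunes the receptors, had 0.945 and 3.43 RPM, and Nrarp, a feedback inhibitor, 1.3 and 3.31. These 6 genes were at least 1.5-fold higher on the log2 scale, of 23 listed members, and 0 were lower.

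Over all 23 Notch members, passed or not, the median log2 change was 0.28, against 0.0034 over all autosomal genes, of which 3.85% were at least 1.5-fold higher and 4.05% lower. Rbpj itself, the DNA-binding partner of the cleaved receptor, had 5.14 and 8.74 RPM (ratio 0.916, 0.66 to 1.27), an interval that includes 1. The same holds for the coactivator Maml1 (0.993, 0.73 to 1.35) and for Numb, an inhibitor of the receptors (0.707, 0.417 to 1.17). Of the 23 members, 15 reached the level for comparison. Hes5, the target most typical of neural stem cells, stayed low with 0.826 and 1.27 RPM. Rita1, which binds Rbpj, was also at least 2-fold higher (2.13 and 9.16 RPM), but it shares its start region with Ddx54, an RNA helicase (1.95 and 8.26 RPM).

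**Figure D2:**
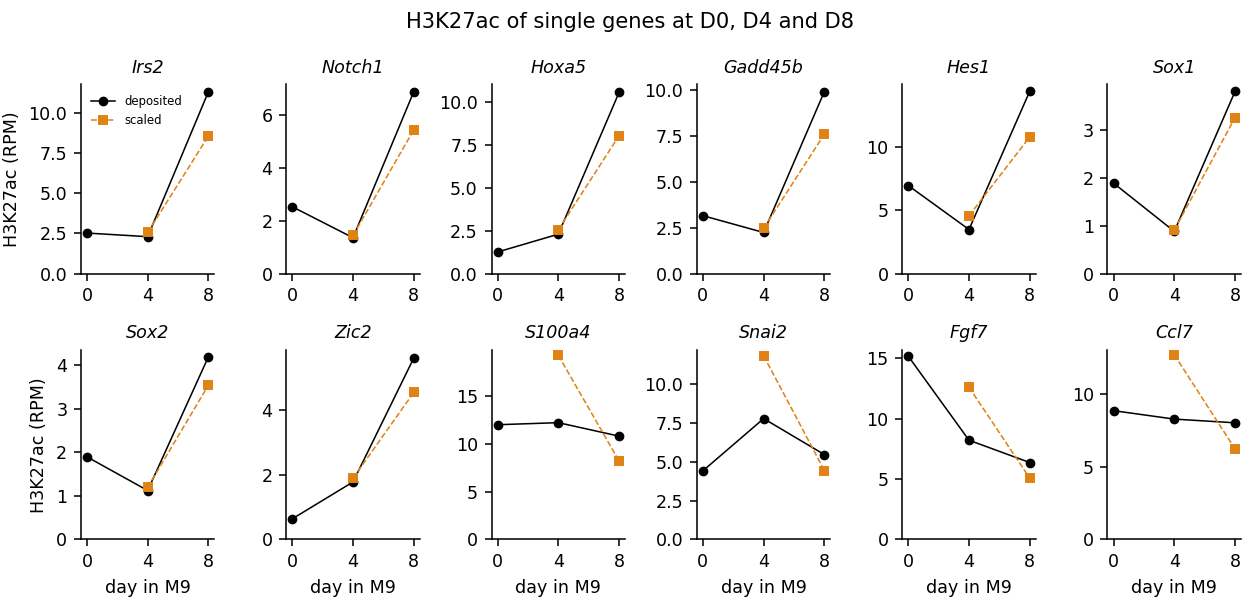
H3K27ac in RPM of 12 genes at days 0, 4 and 8, with 1 library a point. Black points are deposited values and orange squares the scaled values of D4 and D8. The first 8 genes are higher at D8 than at D4 on both scales, while S100a4, Snai2, Fgf7 and Ccl7 are lower on both. As deposited, the counting interval of the D8 to D4 ratio included 1 for S100a4 (0.679 to 1.14), Fgf7 (0.549 to 1.08) and Ccl7 (0.708 to 1.31).

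Among neural stem and progenitor genes, 10 of 46 autosomal members were at least 1.5-fold higher at D8 and 0 lower, with a median log2 change of 0.41 over all 46. Over all autosomal genes 3.85% were higher and 4.05% lower. Beside Notch1 and Hes1, which the Notch list shares, the 10 included 3 Sox genes. Sox1, the SoxB1 factor of the early neural plate, had 0.886 RPM at D4 and 3.81 at D8 (ratio 3.58, 1.86 to 7.15). Sox2, of neural and pluripotent stem cells, had 1.12 and 4.2 RPM (2.96, 1.64 to 5.51). Sox21, which acts against the SoxB1 factors, had 1.53 and 4.32 RPM (2.25, 1.31 to 3.9). The POU factor Pou3f3 reached 4.32 RPM from 1.06, the zinc finger factor Zic2 5.59 from 1.77 and the nuclear receptor Nr2f1, a patterning gene of the cortex, 18.7 from 5.2. Nr2f1 had the highest value of these 10 genes at both stages. The other members at 1.5-fold or more were Msi2 and Irx3, with log2 changes of 0.68 and 0.65.

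Of these 10 genes, Sox1, Sox2, Pou3f3 and Sox21 lay below the upper quartile of autosomal genes at D8, 4.45 RPM, and the other 6 above it. Nes had 2.13 and 4.96 RPM, a ratio of 1.75 (1.09 to 2.84). Pax6, a factor of radial glia, had 1.3 and 1.88 RPM (1.29, 0.634 to 2.65), and Olig2, of ventral progenitors, 1.18 and 1.91 RPM (1.45, 0.691 to 2.98), both intervals including 1. At D4 Sox1, Sox2 and Notch1 were lower than at D0, where a single read is worth 0.632 RPM and their values rest on 3 or 4 reads. In the same list Prom1, a stem cell surface protein, was on the lower side with 2.38 and 1.46 RPM (0.509, 0.255 to 1.04), as was the nuclear receptor Nr6a1 (0.678, 0.401 to 1.08).

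Lists of more mature neural fates differed from each other. Proneural and neuronal genes had a median log2 change of 0.01 over 29 members, with 1 at least 1.5-fold higher and 2 lower. The share of higher members is near that of all autosomal genes, 3.85%, and 4.05% of those were lower. The higher one was Neurog2, a proneural bHLH factor (1.12 and 3.05 RPM), and the lower ones were the proneural factor Neurog1 (log2 change -0.77, below the level for comparison) and Gap43, a growth cone protein (2.83 and 1.65 RPM, ratio 0.456, 0.227 to 0.855). Astrocyte and radial glia genes had a median of 0.0070 over 20 members, with the glutamate transporter Slc1a3 (1.12 and 3.05 RPM) and the intermediate filament Gfap (1.3 and 3.31 RPM) higher. For 15 oligodendrocyte genes the median was 0.31. Nkx2-2, a ventral neural tube factor that Hedgehog induces, led them with 0.59 and 2.92 RPM (4.54, 2.08 to 10.7). Cnp, a myelin enzyme, was higher too (1.33 and 4.07 RPM), and Enpp6, of newly formed oligodendrocytes, was lower (2.3 and 0.636 RPM).

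Hox genes, which set position along the body axis and whose paralog number follows their order on the chromosome, split within the HoxA cluster after quantile normalization. Hoxa5 (chromosome 6, 52201754 to 52204587) stood at 1.26 RPM before M9, 2.3 at D4 and 10.6 at D8, with a scaled ratio of 3.13 (2.12 to 4.71). Hoxa4 had 3.48 and 12.3 RPM (2.03, 1.45 to 2.85). All 6 HoxA genes of paralogs 1 to 6 had a log2 change above 0, with a median of 0.44. All 5 of paralogs 7 to 13 had one below 0 after scaling, with a median of -0.33, although each was higher as deposited, with a median of 0.54. Hoxa9 was lowest with 8.38 RPM at D4 and 9.66 at D8 (ratio 0.578, 0.431 to 0.769), an interval below 1. The intervals of Hoxa7 (0.464 to 1.07), Hoxa10 (0.585 to 1.01), Hoxa11 (0.642 to 1.095) and Hoxa13 (0.589 to 1.07) included 1. So did those of Hoxa2, Hoxa3 and Hoxa6. Under median scaling Hoxa10, Hoxa11 and Hoxa13 turned above 0, with log2 changes of 0.12, 0.23 and 0.12. Hoxa7 and Hoxa9 stayed below it, at -0.17 and -0.24. The split by sign thus depends on the scaling.

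Neighbouring Hox genes lie within a few kilobases and their regions may share reads, so they do not count as separate observations. Outside HoxA the split was less clear. For paralogs 1 to 6 the medians were 0.28 in HoxB, 0.22 in HoxC and 0.21 in HoxD. For paralogs 7 to 13 they were 0.31 in HoxB, 0.02 in HoxC and 0.09 in HoxD. In HoxB, Hoxb8 was higher (2.3 and 5.98 RPM, 1.87, 1.2 to 2.94). In HoxD, Hoxd13 at the posterior end was lower after scaling and higher as deposited (8.38 and 10.7 RPM, 0.632, 0.476 to 0.833). Over all 39 Hox genes, 3 were at least 1.5-fold higher, 1 was lower and the median was 0.21. At Hoxa9 and Hoxd13 the scaled H3K4me3 was lower as well, with log2 changes of -0.73 and -0.64, and at Hoxa5 it was higher, 0.35. The printed Hoxa5 and Hoxa9 promoters differ in CpG number as given above, and its part in the split was not tested.

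**Figure D3:**
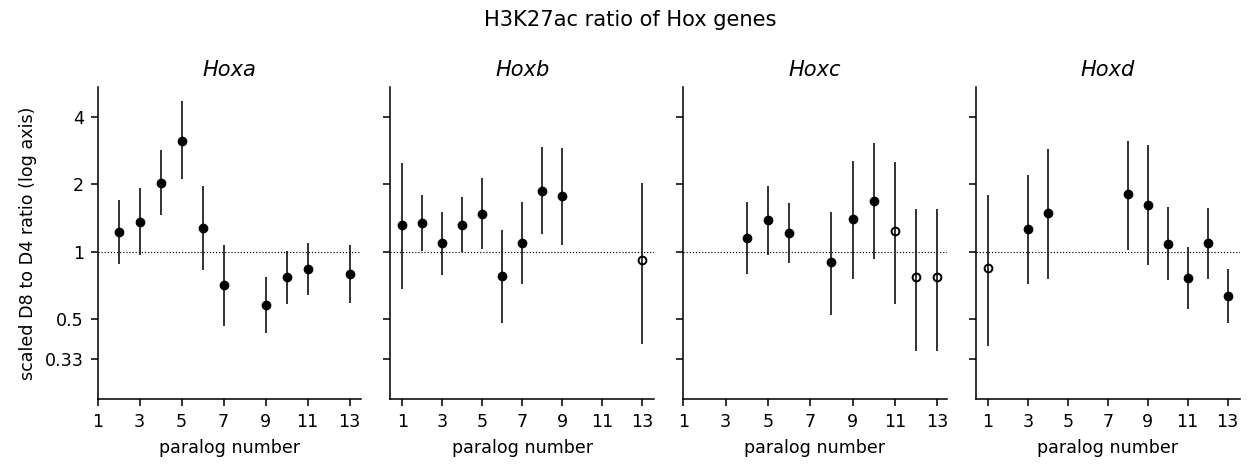
Scaled D8 to D4 ratio of H3K27ac (log axis) for Hox genes by paralog number, with 95% counting intervals. Open points did not reach 2.29 RPM. Among the plotted HoxA genes the ratio is above 1 up to paralog 6, at most 3.13 at Hoxa5, and below 1 for paralogs 7 to 13, lowest at Hoxa9 with 0.578.

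Both stages were at 5% oxygen. The low-oxygen response runs through HIF, which Egln prolyl hydroxylases mark for destruction when oxygen is present. Of 29 hypoxia targets, 8 were at least 1.5-fold higher and 0 lower, with a median log2 change of 0.43 over all 29. Over all autosomal genes 3.85% were higher and 4.05% lower, and the median was 0.0034. Egln1, the main oxygen sensor, had 2.07 and 7.37 RPM (ratio 2.57, 1.66 to 4.03). Pfkfb3, which makes the activator of glycolytic phosphofructokinase, had 2.37 and 9.63 RPM (2.72, 1.85 to 4.13). Bhlhe40, a transcriptional repressor of hypoxia and the clock, had 6.61 and 25.3 RPM (1.89, 1.49 to 2.4). The histone demethylases Kdm3a (4.01 and 13.5 RPM) and Kdm4b (1.95 and 5.59), the collagen hydroxylase P4ha1 (5.2 and 16.9), Vegfa, an angiogenic factor (4.27 and 13.1), and Ddit4, an inhibitor of mTORC1 (9.39 and 30.9), made up the rest.

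Of the 25 hypoxia genes compared, the interval lay above 1 for 15 and below 1 for 0, against 12.2% and 9.82% of all compared genes. The interval included 1 for the other hypoxia genes compared, among them Pfkfb4 (0.891, 0.566 to 1.39), Bnip3 and Hif1a. The same held for Car9, which did not reach 2.29 RPM. Bnip3, a mitophagy receptor, had 5.49 and 10.8 RPM (ratio 1.03, 0.757 to 1.39), and Hif1a itself 6.65 and 11.5 RPM (0.877, 0.659 to 1.17). Car9, a carbonic anhydrase, stayed low at 1.3 and 0.89 RPM. The Egln1 promoter holds the core letters ACGTG of the HIF motif, which 19.6% of the 32851 RefSeq promoters hold on either strand. It is shown with those letters in capitals, and a match of 5 letters is no evidence of binding.
Egln1, chr8:124949205-124949504, minus strand: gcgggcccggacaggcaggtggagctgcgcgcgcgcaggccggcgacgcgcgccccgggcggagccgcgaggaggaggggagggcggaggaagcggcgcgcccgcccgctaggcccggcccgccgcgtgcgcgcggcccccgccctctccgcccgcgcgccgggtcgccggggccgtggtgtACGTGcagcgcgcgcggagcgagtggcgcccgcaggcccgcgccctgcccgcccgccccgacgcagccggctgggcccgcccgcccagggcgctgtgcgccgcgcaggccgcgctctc

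Genes of glycolysis and glucose transport had 7 of 19 members at least 1.5-fold higher, 0 lower and a median of 0.34. Over all autosomal genes 3.85% were higher and 4.05% lower. Slc2a1, the glucose transporter, had 2.77 RPM at D4 and 8.14 at D8 (1.88, 1.27 to 2.8). Ldha, lactate dehydrogenase, had 3.86 and 13.6 RPM (1.96, 1.43 to 2.71) and the lactate exporter Slc16a3 2.79 and 8.48 RPM (1.94, 1.33 to 2.92). Pfkl, Pdk1, Tpi1 and Eno2 had log2 changes of 0.70, 0.67, 0.64 and 0.62. Pkm, pyruvate kinase, had 10.6 and 19.5 RPM, and its scaled ratio was 0.874 (0.70 to 1.09). The H3K4me3 of these 19 genes had a median scaled change of 0.14.

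Of 19 circadian genes, 6 were at least 1.5-fold higher and 0 lower (3.85% and 4.05% of all autosomal genes), with a median of 0.40. Arntl, the BMAL1 activator of the clock, went from 6.95 RPM before M9 to 1.48 at D4 and 5.98 at D8 (3.07, 1.85 to 5.2). Rora, which activates Arntl, had 1.55 and 4.49 RPM (2.25, 1.32 to 3.91), while Nr1d1, which represses it, had 9.39 and 17.4 RPM (0.894, 0.706 to 1.13). The other 4 were Bhlhe40, Bhlhe41, Ciart and Tef. The hour at which the cells were fixed is not given in the sources used here. Among 25 p53 targets and CDK inhibitors, 5 were higher and 0 lower, beside the same shares of all genes, with a median of 0.41. Beside Gadd45b they were Perp, a junction protein (2.83 and 8.26 RPM), the stress cytokine Gdf15 (1.36 and 3.69), Phlda3, an AKT inhibitor (9.56 and 31.9), and the apoptosis gene Pmaip1 (2.6 and 6.87). Cdkn1a, the p21 inhibitor, had 14.3 and 37.2 RPM (1.23, 1.03 to 1.46).

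**Figure D4:**
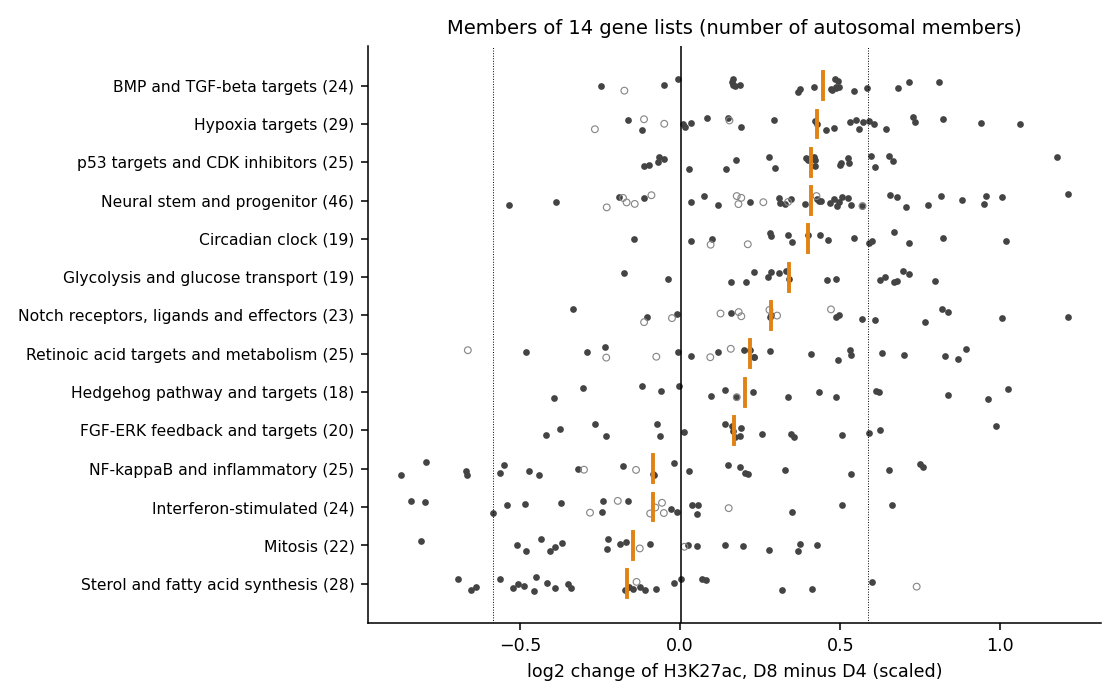
Log2 change of H3K27ac for the autosomal members of 14 gene lists, 1 point a gene, with open points for members below 2.29 RPM at both stages. Orange bars are list medians, the solid line is the median of all autosomal genes (0.0034) and dotted lines mark 1.5-fold. BMP and TGF-beta targets have the highest median of these lists (0.45) and sterol and fatty acid genes the lowest (-0.17).

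Pathways that M9 addresses differed in how their genes moved between the stages. BMP and TGF-beta targets, whose receptors are inhibited at both stages, had a median of 0.45 over 24 members. Of these, 3 were at least 1.5-fold higher and 0 lower (3.85% and 4.05% of all autosomal genes). The homeobox gene Msx1 had 1.65 and 5.21 RPM (2.43, 1.47 to 4.09), the feedback inhibitor Pmepa1 4.01 and 13.4 RPM (1.83, 1.33 to 2.52), and the BMP antagonist Nog was the third (log2 change 0.68). Id1, a direct BMP target, was just under the line with 4.9 and 15.1 RPM (log2 change 0.58, ratio 1.61, 1.21 to 2.16), and at D0 it had 13.3 RPM. Id3 had 21.5, 10.7 and 25.7 RPM at the 3 stages, with a D8 to D4 ratio of 1.13 (0.922 to 1.39).

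Retinoic acid genes had a median of 0.22 over 25 members, with 5 at least 1.5-fold higher and 1 lower. Over all autosomal genes 3.85% were higher and 4.05% lower, and the share of lower members is near the latter. Among the 5 higher members were Dhrs3, a retinaldehyde reductase (12.5 and 44.9 RPM, 1.67, 1.4 to 1.98), and the receptor Rxrb (3.34 and 12.3 RPM, 2.13, 1.52 to 3.03). The degrading enzyme Cyp26c1 (0.59 and 2.67 RPM) and the crosslinking enzyme Tgm2 (2.07 and 5.34 RPM) were higher too. The member called lower, Stra8, a gene of meiotic entry, had 1.3 and 0.254 RPM, below the level for comparison. Rarb, the receptor that retinoic acid induces, had 7.76 and 13 RPM (0.829, 0.629 to 1.07). Dhrs3 had been at 1.26 RPM at D0.

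Of 18 Hedgehog genes, 5 were at least 1.5-fold higher and 0 lower (3.85% and 4.05% of all autosomal genes), with a median of 0.20. Beside Nkx2-2 they were the forkhead genes Foxc2, Foxf1 and Foxl1 and the ligand coreceptor Boc. Foxc2 and Foxf1, forkhead factors of mesoderm, had 2.01 and 7.76 RPM (2.8, 1.81 to 4.39) and 0.945 and 3.43 RPM (3.06, 1.59 to 6.08). Gli1, a transcriptional target and effector, went from 1.26 RPM before M9 to 8.44 at D4 and 20.7 at D8 (1.19, 0.945 to 1.5). The receptor Ptch1 had 13.3 and 28.9 RPM (0.998, 0.826 to 1.21) and the ligand trap Hhip 3.42 and 6.36 RPM (1.14, 0.764 to 1.69). For these 3 targets the scaled interval included 1. Of 23 Wnt genes, 1 was at least 1.5-fold higher, the feedback inhibitor Axin2 (4.84 and 15.9 RPM, 1.72, 1.29 to 2.3), and the median was 0.26. That share is near the 3.85% of all autosomal genes. Lef1, a Wnt transcription factor, had 1.69 and 4.07 RPM (1.92, 1.11 to 3.25).

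FGF-ERK genes had a median of 0.17 over 20 members, with 3 at least 1.5-fold higher and 0 lower (3.85% and 4.05% of all autosomal genes). The feedback inhibitor Spry1 had 3.25 and 13.1 RPM (2.36, 1.68 to 3.33), and the phosphatase Dusp4 3.6 and 10.8 RPM (1.72, 1.23 to 2.43). Dusp6, the ERK phosphatase with the highest level of these, had 12.3 and 30.01 RPM (1.13, 0.934 to 1.37), and Spry4 4.9 and 10.8 RPM (1.17, 0.856 to 1.61). Immediate early genes had a median of 0.17 over 22 members, with Egr2 (1.18 and 4.7 RPM, 3.13, 1.77 to 5.69), Klf4 (2.83 and 10.7 RPM, 2.35, 1.63 to 3.43) and Jun (log2 change 0.64) higher and 0 lower.

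Of the 49 genes at least 2-fold lower, 40 did not reach 9.01 RPM of H3K4me3 at either stage, whereas 73.4% of all compared genes did. Their median H3K27ac was 3.34 RPM at D4 and 1.27 RPM at D8. That D8 median is below the 2.29 RPM for comparison, so many of the 40 passed the filter only through D4, where they were high. With a filter on the mean of both values the count of 49 fell to 29, and with one at 2 times the median to 12. Of the 49, 8 were olfactory receptor genes. Without the level filter, 8 of 1112 olfactory receptor genes were at least 2-fold lower, against 50 of 23190 autosomal genes. These 8 had at most 1.78 RPM at D8, so they reached the 2.29 RPM for comparison at D4 only. The 12 named by rule are all among these 40. Meikin, a meiotic kinetochore protein (chromosome 11, 54370652 to 54426790), was last in the ranking with 3.25 RPM at D4 and 0.636 at D8 (log2 change -1.37, ratio 0.152, 0.0475 to 0.377). Olfr1312, an olfactory receptor, had 3.19 and 0.636 RPM, Cxcl3, a neutrophil chemokine, 3.19 and 0.763, and Ncoa6, a nuclear receptor coactivator, 4.13 and 1.53. The D8 values of Meikin and Olfr1312 rest on 5 reads each. Gm4861, which stood highest in level of the 12, had 9.62 and 7.12 RPM (0.378, 0.274 to 0.515). The others were the microRNA genes Mir3964 and Mir5623, the small nucleolar RNA gene Snora23, the testis enzyme gene Prps1l1, Olfr18, Gm13546 and AI504432, with log2 changes from -1.34 to -1.16.

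The other 9 carried H3K4me3 and were, except Snai2, picked out after their values were seen. Snai2, the SLUG factor of mesenchymal transition, measured 4.42 RPM before M9, 7.79 at D4 and 5.47 at D8 (scaled ratio 0.375, 0.259 to 0.533). Fgf7, a growth factor that mesenchyme sends to epithelium, had 15.2, 8.21 and 6.36 RPM (0.402, 0.285 to 0.56). The histone gene Hist1h2ac had 6.43 and 4.45 RPM (0.386, 0.256 to 0.57). Hapln1, a link protein of hyaluronan matrix, went from 3.13 to 1.14 RPM. Also among the 9 were Mab21l2, Mei4, N6amt2 and Cep85l, with log2 changes of -1.02, -1.11, -1.04 and -1.004. In all 9 the deposited value was lower at D8 too, whereas the median compared gene was higher. As deposited, the counting interval included 1 at Fgf7, Hist1h2ac, Mab21l2 and Cep85l. It left out 1 at Snai2, Hapln1, Mei4 and N6amt2.

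Among fibroblast surface and mesenchymal genes, 3 of 29 were at least 1.5-fold lower and 2 higher, with a median of -0.07. S100a4, a calcium-binding protein used as a fibroblast marker (FSP1), measured 12 RPM before M9, 12.2 at D4 and 10.8 at D8 (0.426, 0.327 to 0.551). As deposited, its interval was 0.679 to 1.14. Fap, a fibroblast surface protease, had 6.55 and 7.25 RPM, lower only after scaling (0.58, 0.414 to 0.805). Thy1 had 3.13 and 5.59 RPM (1.14, 0.749 to 1.74), and Twist1, a mesenchymal bHLH factor, 8.91 and 18.9 RPM (1.02, 0.81 to 1.29). For both the interval included 1. The smooth muscle actin gene Acta2 had 8.09 and 12.3 RPM (0.749, 0.571 to 0.979).

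Collagen and matrix genes had a median of 0.03 over 37 members, with 2 at least 1.5-fold higher and 2 lower. Both shares are near those of all autosomal genes, 3.85% higher and 4.05% lower. The 2 lower, Lum and Ogn, are small leucine-rich proteoglycans, with 9.45 and 11.2 RPM (0.582, 0.443 to 0.76) and 9.74 and 12.1 RPM (0.608, 0.467 to 0.787), again higher as deposited and lower after scaling. The 2 higher were Fbln5, of elastic fibres (2.07 and 6.87 RPM, 2.42, 1.55 to 3.82), and Timp2, a protease inhibitor (2.24 and 6.99 RPM, 2.22, 1.44 to 3.46). Fbln5 had been at 12 RPM at D0. Of the type I collagen genes, Col1a1 had 20.8, 7.73 and 19.5 RPM at the 3 stages (D8 to D4 ratio 1.23, 0.966 to 1.56) and Col1a2 16.4, 7.62 and 12 RPM (0.78, 0.592 to 1.03). Col3a1 was the highest of the fibroblast markers, with 22.2 and 32.7 RPM, and its scaled ratio was 0.708 (0.602 to 0.832).

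Inflammatory genes diverged within their list. Of 25 NF-kappaB and inflammatory genes, 3 were at least 1.5-fold higher and 4 lower, with a median of -0.09 that turned above the median of all genes under median scaling. The 4 lower encode secreted or surface proteins. They were the chemokine Ccl7 (8.26 and 8.01 RPM, 0.49, 0.358 to 0.664), the adhesion molecule Vcam1 (6.43 and 6.1 RPM, 0.507, 0.353 to 0.718), the cytokine Il6 (5.08 and 4.83 RPM, 0.547, 0.363 to 0.811) and the IL-33 receptor Il1rl1 (5.94 and 6.15 RPM, 0.563, 0.387 to 0.794), of which Il1rl1 was slightly higher as deposited. As deposited, the counting interval included 1 for each of these 4. The 3 higher were the inhibitor Nfkbie (1.36 and 4.2 RPM), the adhesion molecule Icam1 (1.77 and 5.21) and the cytokine Lif (3.01 and 8.77). Of 24 interferon-stimulated genes, 1 was higher, the peptide transporter Tap1 (1.83 and 4.83 RPM), and 2 lower, Isg15 (3.78 and 2.42) and Gbp2 (6.26 and 5.59), with a median of -0.09. Over all autosomal genes 3.85% were higher, near the share of this list, and 4.05% lower.

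Sterol and fatty acid synthesis had the lowest median of the lists plotted by member, -0.17 over 28 members, with 2 at least 1.5-fold higher and 3 lower. Of the 28, 6 lay above the median of all autosomal genes. Srebf2, the master regulator, had 10.04 and 11.7 RPM (0.579, 0.444 to 0.75). Hmgcs1, an early enzyme of cholesterol synthesis, had 8.5 and 10.3 RPM (0.599, 0.45 to 0.792). Both were higher as deposited and lower after scaling. Fasn, fatty acid synthase, was on the other side (3.07 and 8.65 RPM, 1.73, 1.19 to 2.53). With the deposited values the list no longer differed in that direction from all compared genes (0.019 above their median). The Hmgcs1 promoter holds the letters TCACCCCAC of the sterol response element, found on either strand in 0.551% of RefSeq promoters and shown in capitals.
Hmgcs1, chr13:119690101-119690400, plus strand: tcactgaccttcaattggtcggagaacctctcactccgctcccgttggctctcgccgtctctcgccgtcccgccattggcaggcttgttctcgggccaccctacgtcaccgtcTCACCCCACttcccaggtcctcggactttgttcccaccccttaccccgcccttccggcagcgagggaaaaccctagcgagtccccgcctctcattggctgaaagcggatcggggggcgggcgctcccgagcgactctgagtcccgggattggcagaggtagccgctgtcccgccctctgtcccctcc

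Of 22 mitosis genes, 0 were at least 1.5-fold higher and 1 lower, with a median of -0.15, and the lower one was the spindle assembly factor Tpx2 (3.6 and 2.16 RPM, 0.427, 0.234 to 0.741). The share of lower members is near that of all genes (4.05%). Bub1b, a checkpoint kinase, had 2.42 and 1.53 RPM (0.529, 0.253 to 1.03). DNA replication genes had a median of 0.05 over 23 members, with Gins2 higher (1.06 and 2.92 RPM) and Mcm6, a subunit of the replicative helicase, lower (3.9 and 3.05 RPM, 0.518, 0.31 to 0.837). Both shares are near those of all autosomal genes, 3.85% higher and 4.05% lower.

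Of 26 Polycomb, DNA methylation and LSD1 complex genes, 4 were at least 1.5-fold higher, all of Polycomb complex PRC1, and 1 was lower, with a median of 0.13. Over all autosomal genes 3.85% were higher and 4.05% lower, and the share of lower members is near the latter. Ring1 had 1.59 and 5.47 RPM (2.63, 1.59 to 4.43) and Rnf2 2.6 and 7.76 RPM (1.98, 1.32 to 2.98), both ubiquitin ligase subunits. The lower one was the deacetylase gene Hdac1 (3.19 and 1.91 RPM, 0.443, 0.232 to 0.796). Of 25 BAF and acetylation genes, 3 were higher and 0 lower, with a median of 0.25. They included Crebbp, which encodes the acetyltransferase CBP that writes H3K27ac (1.95 and 5.98 RPM, 2.3, 1.44 to 3.7), and the BAF subunit Smarcd3 (2.95 and 10.05 RPM, 2.1, 1.46 to 3.06).

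Housekeeping genes had a median of -0.02 over 24 members with 0 at least 1.5-fold higher and 2 lower, the transferrin receptor Tfrc (3.25 and 2.42 RPM) and the proteasome subunit Psmb4 (3.84 and 2.8). Actb had 7.2 and 17.8 RPM (1.22, 0.95 to 1.57) and Gapdh 6.79 and 17.9 RPM (1.3, 1.0 to 1.67). Cytoplasmic ribosomal protein genes had a median of 0.07 over 36 members, with 2 higher and 1 lower. Contractile and YAP target genes had 0 of 29 past 1.5-fold in either direction and a median of 0.07. The remaining medians were 0.16 for the integrated stress response, -0.07 for NRF2 targets, 0.14 for autophagy and lysosome, 0.12 for epithelial, -0.05 for blood, -0.01 for endothelial, -0.0063 for skeletal muscle and 0.13 for pluripotency genes. In the epithelial list 2 of 22 were at least 2-fold higher, the keratin Krt18 (0.531 and 3.56 RPM, 5.94, 2.73 to 14.3) and Grhl3, a factor of epidermis and neural tube closure (1.18 and 5.59 RPM, 3.64, 2.1 to 6.52), while Cdh1 and Epcam had ratios of 0.86 (0.397 to 1.76) and 0.83 (0.384 to 1.69).

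Among the 5 genes with the highest deposited H3K27ac at D8, Mir101c, Sfi1 and Akap8l were also high in H3K27me3. The series has input libraries at D4 and D8, but no value here was set against them. Signal that does not depend on the antibody can thus not be told apart from these marks. Mir101c had 106 and 106 RPM of H3K27ac, but also 124 and 91.4 RPM of H3K27me3, 96 and 56.3 RPM of H3K4me1 and 97.7 and 64.8 RPM of H3K4me3. Sfi1 had 64.8 and 73.7 RPM of H3K27ac, 69 and 78.6 of H3K27me3 and 51.3 and 34.8 of H3K4me1. Mir199a-2 had 34.3 and 56.5 RPM of H3K27ac and Mir21a 34.1 and 56.3. Akap8l was lower at D4, with 23.4 RPM at D4 and 79.7 at D8 (1.99, 1.75 to 2.26), and 48.6 RPM at D0. Its H3K27me3 was 15.0 and 18.4 RPM, against 99th percentiles of 6.29 and 7.33 RPM over autosomal genes. Its H3K4me1 was 5.05 and 9.64 RPM, against 6.19 and 8.67. Akap8l encodes a nuclear protein related to the kinase anchor Akap8, which lies within 5 kb.

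Promoter base composition moved with the change over all genes. Among the 10132 compared protein-coding genes with a RefSeq promoter (80.8% of those compared), the median log2 change was -0.28 in the decile with the lowest GC content, -0.10 in the next, and 0.18 in the decile with the highest. Coding genes at least 2-fold higher had a median of 23.5 CpGs per promoter (34 of 39 with a promoter), against 19 over all compared coding genes. For those lower the check is void, since 22 of 30 had a promoter (73.3%). Among the 10132 genes, 34 were at least 2-fold higher and 22 lower, and 17 and 13 with the median of each GC decile taken out. Olfactory receptor genes, which serve smell in nasal neurons, had a median log2 change of -0.21 over 1112 genes and a median promoter GC content of 35%. The promoters of glycolysis genes had a median GC content of 61.7%, those of p53 and CDK inhibitor genes 62.5% and those of clock genes 66.2%. List values cover all autosomal members, compared or not. All autosomal coding genes had a median of 57.3%, with a promoter for 79.9% of them, just short of the 80% asked of lists. Those compared had 59.7%, so the side on which a list such as mitosis falls depends on the set. Contractile and YAP genes, with a list median near 0, had 64%, Polycomb and related genes 67.3%, BAF and acetylation genes 68.3%, mitosis genes 58.3% and interferon-stimulated genes 52.7%. In the sterol and NF-kappaB lists fewer than 80% of members had a promoter, so none is given. The part of base composition, and of the unequal depth of the libraries, in these changes was not tested beyond these values.

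The other 3 marks, which took no part in the ranking, were read at the same genes. Among the 48 genes higher in H3K27ac, 38 had a scaled H3K4me3 change above 0, with a median of 0.34. Over all compared genes it was 7208 of 14536, with a median of -0.0014. H3K4me1 at these genes had a median of 0.055 and H3K27me3 one of 0.047. Genes at least 2-fold lower with H3K4me3 were lower in that mark too, with 0 of 9 above 0 and a median of -0.53. Of all compared genes with H3K4me3, 5344 of 10674 were above 0. Lower genes without it had a median H3K4me3 change of -0.013 and a median H3K4me1 change of -0.19, with 12 of 40 above 0 in H3K4me1. Of all compared genes without H3K4me3, 1514 of 3862 were above 0 in H3K4me1, with a median of -0.048. Deposited H3K4me3 had a median of 16.2 RPM at D4 and 33.8 RPM at D8 over all compared genes. At Fgf7 it was 45.1 and 30.8 RPM (scaled log2 change -1.43), at Notch1 26 and 68.8 (0.44) and at Irs2 33.2 and 88.4 (0.51).

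Over the 14536 compared genes the rank correlation of the H3K27ac change was 0.273 with the H3K4me3 change, 0.152 with the H3K4me1 change and 0.193 with the H3K27me3 change. These are descriptions over genes, which are not independent and whose promoter GC content moves with the changes. Each mark again rests on 1 library a stage, with 2.77 M reads for H3K4me3 at D4 and 34.9 M at D8. Among neural genes, Sox21 had a scaled H3K4me3 change of 2.24 (2.16 RPM at D4 and 18.7 at D8) and Sox2 one of 1.1 (3.61 and 16 RPM). The neural stem list had a median H3K4me3 change of 0.32, the Notch list 0.21, the hypoxia list 0.05 and the sterol list -0.22.

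**Figure D5:**
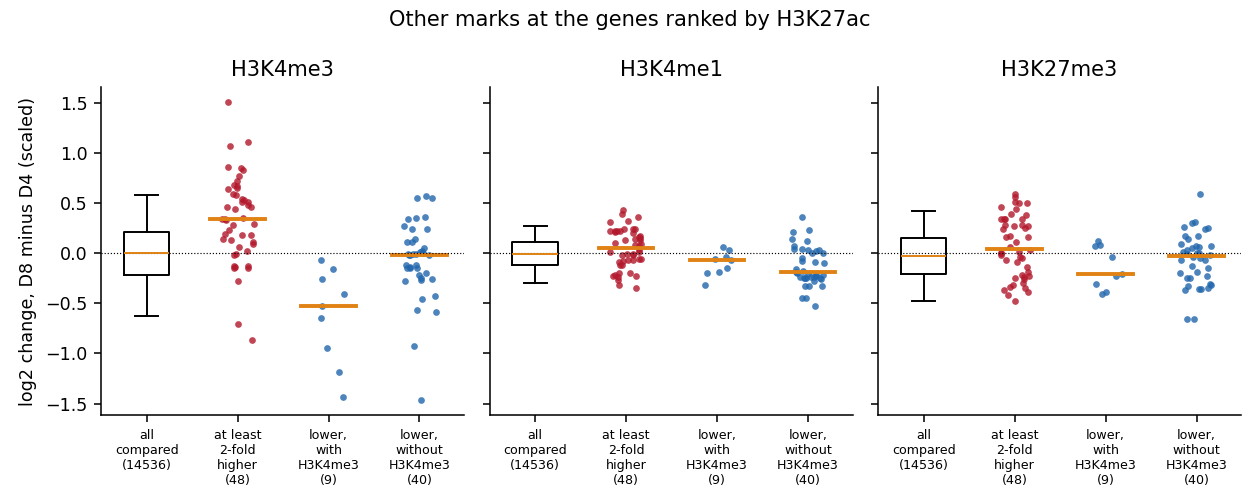
Scaled log2 change from D4 to D8 of H3K4me3, H3K4me1 and H3K27me3 at all 14536 compared genes (box with quartiles, whiskers from the 5th to the 95th percentile), at the 48 genes higher in H3K27ac (red) and at the lower genes with (9) and without (40) H3K4me3 (blue). Orange bars are medians; H3K4me3 stands at 0.34 for the higher genes and at -0.53 for the lower genes that carry it.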

How the data were processed

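H3K27ac was measured by chromatin immunoprecipitation sequencing in 1 library at each of D0, D4 and D8. Shearing aimed at fragments of 200 to 400 bp, amplification took 13 PCR cycles and reads were single 50 nt ends, per the labels' protocols. The submitters' processing notes name CASAVA 1.8.4, Bowtie 1.1.0, SAMtools 0.1.19, bedtools and mm10. The authors' deposited table gives 1 value per gene and library, which was read as RPM, reads on the gene's region scaled by the authors to library size. This unit was inferred, since 93.8% of the D4 and of the D8 values were whole multiples of 1 read within 0.02 reads. For the region counted per gene, read extension and duplicate removal, nothing was given in the sources used here. Of 20 value columns, 8 matched no label and were not used.

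The D4 and D8 columns were quantile normalized over autosomal genes, with the pseudocount at the 25th percentile of positive values and the comparison minimum at the median. The other marks were scaled in the same way. Genes were placed by RefSeq, with 23337 symbols and 971 synonyms matched and 118 unmatched (99.5% matched). Of the autosomal genes, 404 share all values with another gene, 76 of them compared, and these were not named. Named genes were the 12 largest gains and 12 largest losses with an interval leaving out 1 and the same direction under median scaling, the 2 largest gains and losses of each of 36 lists, the 5 highest at D8 and a fixed set of markers and targets. Other list members past 1.5-fold, and the other genes named, were chosen after their values were seen. Some genes are not reported here. The genes, lists and comparisons were all chosen with earlier results of these data known. With 1 library per mark and stage there were no replicates, so no test was run and the spread between cultures is unknown. Calculations used Python 3.11.15, numpy 2.4.6, pandas 2.3.3, scipy 1.17.1 and matplotlib 3.10.9, and were tested on simulated data.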

Additional observations from a re-analysis of the deposited data

How the results depend on the processing

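With 1 library a stage, depth and culture cannot be separated from time, and low genes rest on few reads. No paired analysis was possible because each stage has 1 library. The counts of genes at least 2-fold higher and lower were 48 and 49. They were 93 and 21 under median scaling and 1022 and 5 with deposited values. Trimmed mean of M values gave 26 lower. With the pseudocount divided by 4 they were 367 and 341, and multiplied by 4 they were 0 and 0. A filter at 2 times the median gave 12 lower. The 1.5-fold threshold gave 840 and 806. Of the alternatives chosen after seeing the data, a filter on the mean of both values gave 29 lower, and centring on promoter GC deciles gave 17 and 13, against 34 and 22 in the same 10132 genes without centring.

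List medians are given as the median of compared members minus that of all compared genes. The Notch list, at 0.46, was at 0.28 under median scaling, 0.27 under trimmed means, 0.74 and 0.18 with the smaller and larger pseudocount and 0.28 with no filter. Glycolysis, at 0.30, was at 0.57 under median scaling, 0.64 as deposited and 0.56 under trimmed means. The p53 list, at 0.37, was at 0.61, 0.72 and 0.60 under the same settings and at 0.24 with the larger pseudocount. With that pseudocount the neural stem list went from 0.43 to 0.21, hypoxia from 0.44 to 0.23, the BMP and TGF-beta list from 0.43 to 0.19 and the clock list from 0.40 to 0.19. The clock list was at 0.26 with the filter at 2 times the median and at 0.24 within GC deciles.

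The sterol list, at -0.30, was at -0.050 under median scaling, -0.063 under trimmed means, -0.19 with the larger pseudocount and -0.17 with no filter, and it turned to 0.019 as deposited. The NF-kappaB list, at -0.12, turned to 0.10 under median scaling, 0.15 as deposited and 0.10 under trimmed means, and was at -0.058 with the larger pseudocount and -0.22 with the filter at 2 times the median. The interferon list, at -0.20, was at -0.10, -0.089 and -0.34 with the larger pseudocount, no filter and the filter at 2 times the median. Mitosis, at -0.22, was at -0.13 under median scaling, -0.12 as deposited, -0.13 under trimmed means and -0.12 with the larger pseudocount. The cause of these shifts was not tested. Of 267 named compared genes, 112 moved beyond the mean arm of their 95% counting interval with deposited values. The number was 48 under median scaling, 30 under trimmed means and 1 with all chromosomes. Of those past 2-fold, 0 changed sign, but genes named by rule had to keep their direction under median scaling to be named. Below 2-fold, signs did change: under median scaling Col3a1 went from -0.47 to 0.063 and Acta2 from -0.36 to 0.10.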
